A study of Mus musculus with 43 samples.

Results

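The 8 genes described here are Alas1, Alas2, Fech, Blvrb, Slc25a37, Bpgm, Klf1 and Rhag, which serve heme synthesis, the handling of its products and the red blood cell lineage. They were taken by symbol from the tables of the series, which together list 14773 genes. All 8 are in the table of cell inputs, of 13817 genes, and 7 are in the table of processing conditions, of 13845 genes. Rhag was not analysed in the second table. The genes were chosen by their measured TPM values in sorted cells and bulk RNA, so those levels are given as a description with no test.

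All libraries were made from PD798, a mouse line grown in culture from a pancreatic ductal tumour of the KPCY model. In this model Pdx1-Cre acts in the pancreatic lineage on engineered alleles, 1 of them a floxed p53 allele, and a Rosa YFP reporter makes the tumour cells fluorescent. The input series holds 11 single cells, 12 pools of 10 cells and 6 pools of 100 cells, all passed through magnetic depletion of blood cells and an acoustic wash on a chip and then sorted on YFP with a BD Influx, and 2 bulk RNA libraries, which the study describes as controls from the cell line although their labels carry the same flow treatment. The processing series holds 3 bulk libraries of each of 4 conditions. Mock cells waited in staining buffer at room temperature, and Pre-FACS cells were banked before sorting. FACS-only cells were stained, incubated with magnetic particles, treated with red cell lysis buffer and sorted. Pre-enriched cells came from the same sample and also passed the depletion and wash before the sort. The study states that the cells sorted for the input series had first been spiked into blood of healthy mice. The labels speak of such spiking for the processing libraries too, while the study's account of the 4 conditions does not mention blood. One line is one tumour, and nothing in the labels says that replicates came from separate cultures, so p-values measure the spread between these libraries, which may be technical.

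Heme is built from glycine and succinyl-CoA by a chain of enzymes that begins and ends in the mitochondrion. Alas1 and Alas2 are alternative forms of the first enzyme, 5-aminolevulinate synthase. Alas1 serves all tissues and is held down by heme, whereas Alas2 is the X-linked form of red cell precursors, where it supplies haemoglobin. Fech, ferrochelatase, puts iron into the ring in the last step, and Slc25a37 (mitoferrin 1) brings that iron into the mitochondrion. Blvrb, biliverdin reductase B, acts on products of heme breakdown. Bpgm makes 2,3-bisphosphoglycerate, which lowers the oxygen affinity of haemoglobin, Klf1 is the erythroid transcription factor that binds CACCC elements, and Rhag is a Rhesus-associated glycoprotein of the red cell membrane.

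The sequences upstream of Alas2, Klf1 and Rhag are shown because these genes are restricted to the red cell lineage and yet, as given below, only Alas2 reached a high level in these libraries. They are RefSeq windows on GRCm38.p6, ended at the first base of the GENCODE M21 gene so that no transcribed base is included, and written 5′ to 3′. Capitals mark GATAA or its reverse complement TTATC, the core of the element bound by GATA factors, and CACCC or GGGTG, the core of the CACCC element.
Alas2, chrX:150547167-150547374, plus strand: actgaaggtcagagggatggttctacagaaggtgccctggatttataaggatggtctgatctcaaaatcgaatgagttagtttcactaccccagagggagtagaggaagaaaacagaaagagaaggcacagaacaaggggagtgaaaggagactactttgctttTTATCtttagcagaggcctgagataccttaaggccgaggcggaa
Klf1, chr8:84901732-84901927, plus strand: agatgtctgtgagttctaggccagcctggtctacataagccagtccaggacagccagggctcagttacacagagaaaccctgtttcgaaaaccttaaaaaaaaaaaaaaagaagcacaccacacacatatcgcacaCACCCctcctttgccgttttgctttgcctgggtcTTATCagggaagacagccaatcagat
Rhag, chr17:40810899-40811125, plus strand: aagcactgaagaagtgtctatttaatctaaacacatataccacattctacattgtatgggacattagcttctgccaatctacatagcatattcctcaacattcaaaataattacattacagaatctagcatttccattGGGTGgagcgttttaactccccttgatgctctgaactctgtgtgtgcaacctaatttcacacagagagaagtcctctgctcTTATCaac

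In the full 250 bases before the RefSeq start, Alas2, Klf1 and Rhag each held 1 GATAA motif on either strand. The windows of Alas1, Blvrb and Bpgm held 0. Of all 32851 mouse windows of this length, 22.6% held at least 1 GATAA. The CACCC motif occurred 3 times in the Alas2 window, all in the part not printed, and 1 time each in those of Klf1 and Rhag. It was also in both windows of Alas1 and both of Blvrb, and 52.0% of all windows held it. Windows were found for 6 of the 8 genes. These matches describe letters in a window and no binding was measured.

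The genes lie apart in the genome. By GENCODE M21 on mm10, Alas1 is on chromosome 9 (106233455 to 106248654), Alas2 on the X chromosome (150547375 to 150570638), Fech on chromosome 18 (64452914 to 64490251) and Blvrb on chromosome 7 (27447978 to 27466144). Slc25a37 is on chromosome 14 (69241848 to 69285112), Bpgm on chromosome 6 (34476207 to 34505613), Klf1 on chromosome 8 (84901928 to 84905291) and Rhag on chromosome 17 (40811126 to 40840754). Alas1 and Alas2 transcripts shared 0 words of 31 bases, so reads of that length can be told apart between them. Alas2 overlaps Apex2, a DNA repair gene on the opposite strand, over 311 of its 2403 exon bases (12.9%), and the counting is not stated to use strand. Apex2 was at 0 TPM in single cell 11 and at 13.6 TPM in 10-cell pool 10, the libraries with the highest Alas2.

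Values are TPM (transcripts scaled to a fixed total per library), which are scaled for gene length, and they do not give the depth of each library. Several input libraries stood apart. In the first 4 single cells no X-linked gene of the 47 that reached 100 TPM in both bulk libraries had a value above 0, so the 0 of Alas2 there carries no information. Single cells 6 and 9, 10-cell pools 5 and 12 and 100-cell pools 1 to 3, 7 libraries in all, correlated with each other at r of 0.967 to 0.995 (Pearson, across genes), whereas no other sorted library exceeded 0.955 with any of them. They held 11223 to 11549 genes at 1 TPM or more, against 3919 to 10760 in the other 22 sorted libraries. These 7 were picked out after the data were seen, and levels of the genes of the set are given with and without them. Summaries of the gene lists include them. Ductal keratins were high in the pools, with medians over the 18 pools of 11489 TPM for Krt18 and 5416 TPM for Krt8. Of the 8 ductal genes listed, 3 had a higher median in 10-cell pools than in bulk RNA and 5 a lower one. For 3 of them, Krt8, Cdh1 and Sox9, every 10-cell pool was below both bulk libraries, as for 40.5% of all genes tested. Cdh1 was at 45.4 to 223 TPM in 10-cell pools against 929 and 939 TPM in bulk RNA.

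The tumour line expressed 5 of the genes. Alas1, Fech, Blvrb, Slc25a37 and Bpgm were at 1 TPM or more in both bulk RNA libraries and in all 12 processing libraries, as were 83% of the genes in both tables (10701 of 12889). Alas2 and Klf1 did not meet this rule, and Rhag was listed at 0 in both bulk RNA libraries. The plot of all 8 genes by library shows these classes side by side. The 2 tables were normalised separately, so levels are compared within each table.

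**Figure D1:**
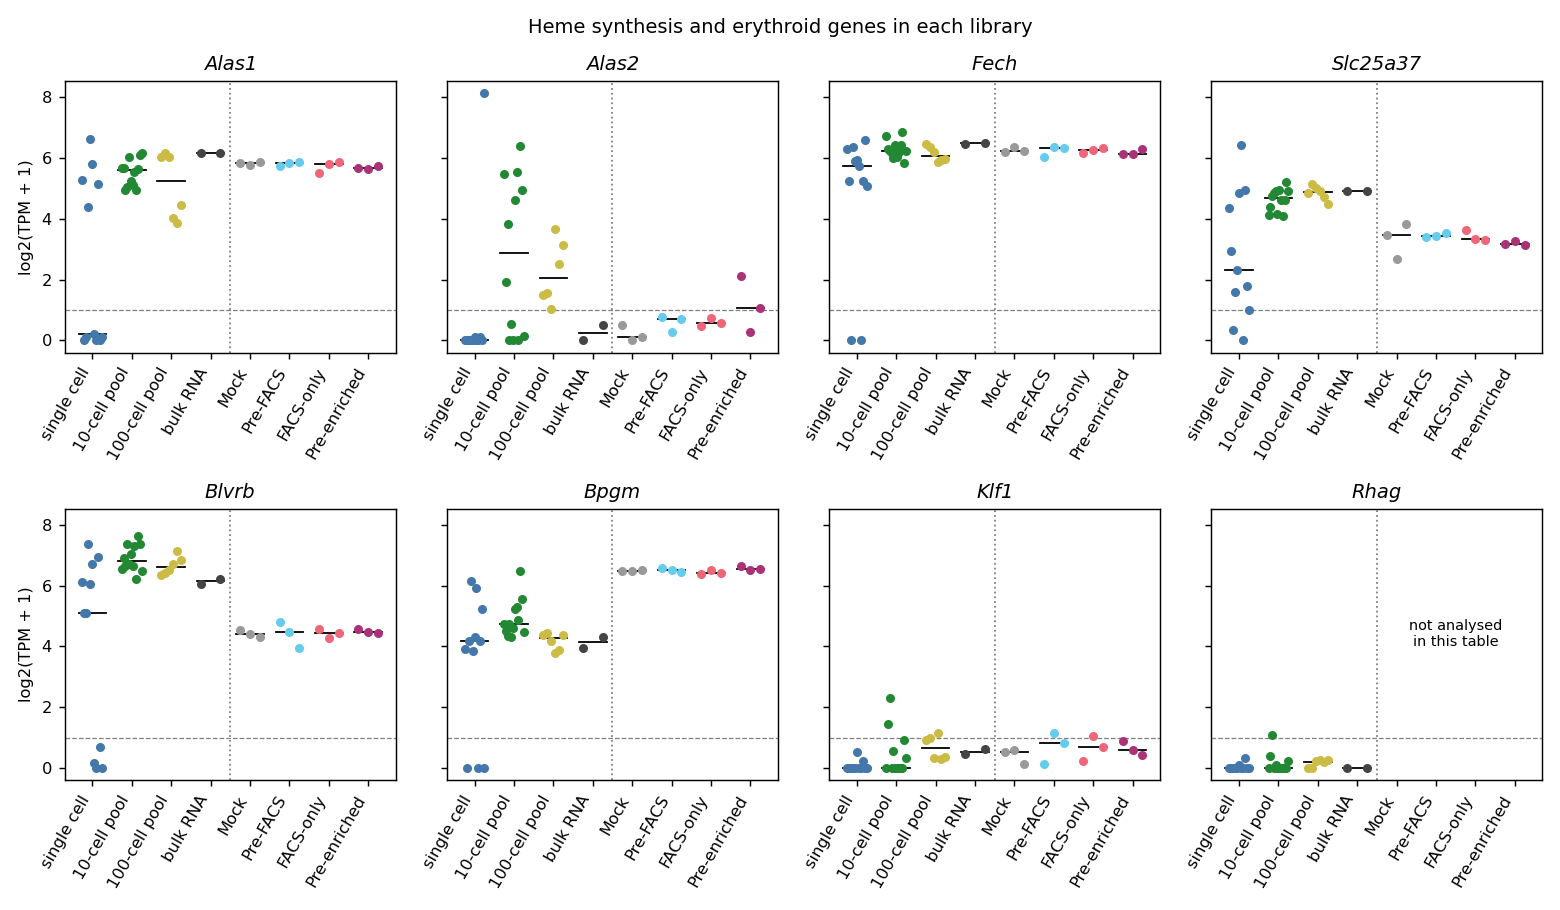
Level of each gene in each library as log2(TPM + 1), with 1 point per library and a bar at the group median. Groups left of the dotted line are from the input table and those right of it from the processing table, which were normalised separately, and the dashed line marks 1 TPM. Alas1, Fech, Slc25a37, Blvrb and Bpgm were above 1 TPM in every bulk, pool and processing library, whereas Alas2 ranged from 0 to 83.3 TPM in 10-cell pools and was at 278 TPM in 1 single cell.

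Alas1, the housekeeping synthase, was at 70.0 and 70.2 TPM in bulk RNA. In 10-cell pools it ranged from 29.5 to 71.1 TPM with a median of 47.1 TPM, and 12 of 12 pools held it. The 100-cell pools fell apart into pools 1, 2 and 3 at 63.8, 70.1 and 64.0 TPM and pools 4, 5 and 6 at 15.4, 13.6 and 20.8 TPM. The first 3 overlap the range of the 10-cell pools, and the last 3 lie below every 10-cell pool. In single cells Alas1 ranged from 0 to 96.7 TPM with a median of 0.165 TPM, and 5 of 11 cells were at 1 TPM or more. Without the 7 libraries that stood apart, 3 of 9 single cells reached it, and the medians were 41.1 TPM in 10-cell pools and 15.4 TPM in 100-cell pools.

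Alas2, the erythroid synthase, was listed at 0 TPM in one bulk RNA library and was at 0.415 TPM in the other. In 10-cell pools 1 to 12 it was at 43.6, 2.75, 13.1, 0, 0.455, 0, 23.8, 45.3, 0, 83.3, 29.6 and 0.0950 TPM. Thus 7 of 12 pools reached 1 TPM, and among these the level ran from 2.75 to 83.3 TPM. All 6 of the 100-cell pools held it, at 1.80, 1.94 and 1.03 TPM in pools 1 to 3 and at 11.6, 4.75 and 7.86 TPM in pools 4 to 6, above both bulk RNA libraries. Among all genes tested, 13.9% had every 100-cell pool above both bulk libraries. Of the 11 single cells, 1 reached 1 TPM: single cell 11 stood at 278 TPM, the highest value of Alas2 in the series, with traces of 0.0878 and 0.0717 TPM in single cells 6 and 9 and 0 in the others. In single cells 1 to 4, where all 47 X-linked genes checked were at 0, the 0 of Alas2 carries no information. In a pool, few cells with much of a transcript and many cells with little cannot be told apart.

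Alas2 was low in the 7 libraries that stood apart, where it ranged from 0.0717 to 1.94 TPM with a median of 0.455 TPM. In the remaining 10 10-cell pools the median was 18.4 TPM and 3 were at 0, and in the remaining 3 100-cell pools the range was 4.75 to 11.6 TPM. Single cell 11 was also one of the sparsest libraries: its genes summed to 65.1% of the fixed total, 4106 genes reached 1 TPM, and 20.5% of 2075 autosomal genes at 100 TPM or more in bulk RNA were listed at 0. It held the ductal keratins Krt8, Krt18 and Krt19 at 237, 1721 and 992 TPM, and its summed level of 8 ductal genes, 3463 TPM, was the lowest of the 11 single cells, whose highest sum was 30244 TPM.

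The balance of the synthases followed from these levels. Alas1 was the higher of the pair in both bulk RNA libraries, in all 6 of the 100-cell pools and in 10 of 12 10-cell pools. In 10-cell pool 8 they were level, at 45.3 TPM each, and in 10-cell pool 10 Alas2 was higher, at 83.3 TPM against 49.0 TPM. Alas2 made up 63.0% of their sum in that pool, 25.9% to 42.9% in 100-cell pools 4 to 6 and 1.58% to 2.74% in 100-cell pools 1 to 3. In single cell 11 it made up nearly all of the sum, with Alas1 at 0.0670 TPM. Both genes were listed at 0 in single cells 2, 8 and 10, though in single cell 2 the 0 of Alas2 carries no information.

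**Figure D2:**
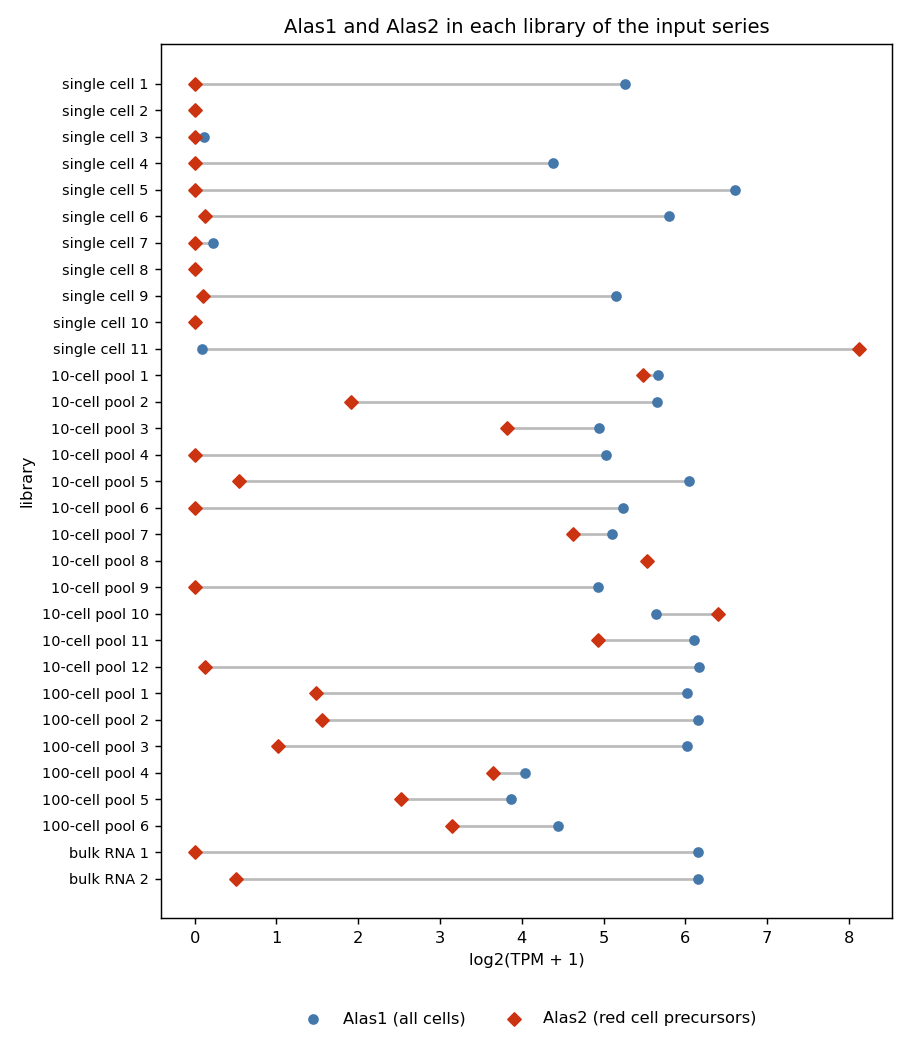
Alas1 (circles) and Alas2 (diamonds) in each of the 31 input libraries as log2(TPM + 1), joined by a line within each library. Alas1 varied less between pools than Alas2, and the order was turned in single cell 11 and in 10-cell pool 10, with both genes at 45.3 TPM in 10-cell pool 8.

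Fech, the last enzyme of the pathway, was held by every pool at a level near that of bulk RNA. It was at 87.9 and 89.2 TPM in bulk RNA, at 56.5 to 116 TPM (median 73.6 TPM) in 10-cell pools and at 57.7 to 86.1 TPM in 100-cell pools. All 100-cell pools were below both bulk libraries, as were 52.5% of all genes tested. Fech was detected in 9 of 11 single cells, with a median of 52.3 TPM, and single cell 11 held it at 32.6 TPM. Without the libraries that stood apart, the medians were 52.3 TPM in 9 single cells, 75.6 TPM in 10 10-cell pools and 60.6 TPM in 3 100-cell pools. Some stretches of its transcripts occur elsewhere: 6.81% of its 31-base words were shared with other genes.

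Slc25a37, the mitochondrial iron importer best known from red cell precursors, was at 28.9 and 29.0 TPM in bulk RNA. In 10-cell pools it ranged from 16.2 to 36.1 TPM with a median of 24.7 TPM, and in 100-cell pools from 21.3 to 34.5 TPM, so that both ranges enclosed the bulk values. In single cells the spread was wide, from 0 to 85.5 TPM with a median of 3.98 TPM, and single cell 11 was at 1.01 TPM. Without the libraries that stood apart, the medians were 2.46 TPM in single cells, 23.7 TPM in 10-cell pools and 25.1 TPM in 100-cell pools. The processing libraries of the same line held it at 5.34 to 13.2 TPM.

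Blvrb, the reductase of heme breakdown products, was at 65.4 and 73.8 TPM in bulk RNA. Every 10-cell pool was above both values, at 74.3 to 200 TPM (median 112 TPM), and so was every 100-cell pool, at 80.1 to 141 TPM (median 97.1 TPM). Across all genes tested, 8.95% had every 10-cell pool above both bulk libraries. The lowest 10-cell pool exceeded the higher bulk library by less than the 2 bulk libraries differed. In 7 of 11 single cells Blvrb reached 1 TPM, with the highest value at 165 TPM, and it was at 0 in single cell 11. Without the libraries that stood apart, 5 of 9 single cells reached 1 TPM, and the medians were 33.4 TPM in single cells, 124 TPM in 10-cell pools and 114 TPM in 100-cell pools.

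Bpgm, the source of 2,3-bisphosphoglycerate, was at 14.6 and 18.7 TPM in bulk RNA. The 12 10-cell pools again all lay above these values, at 19.0 to 87.8 TPM (median 25.8 TPM), while the 100-cell pools, at 12.8 to 20.7 TPM, overlapped them. Blvrb and Bpgm were the 2 of 7 genes that passed the filter with this separation in 10-cell pools, against 8.95% of all genes tested. For 0 of 7 was every 10-cell pool below both bulk libraries, as for 40.5% of all genes. Alas2, at 0 in a bulk library, could not be. Alas2 and Klf1 were under 1 TPM in both bulk libraries and passed the filter only through sorted libraries. The genes were also chosen on these levels, so nothing is concluded from either count. In single cells Bpgm ranged from 0 to 70.9 TPM, and it was at 0 in single cell 11. Without the libraries that stood apart, its medians were 14.3 TPM in single cells, 27.0 TPM in 10-cell pools and 13.9 TPM in 100-cell pools. In the processing table Bpgm was at 82.0 to 99.9 TPM over the 12 libraries and Blvrb at 14.3 to 26.8 TPM, so Bpgm was the higher of the pair in that table and Blvrb in bulk RNA of the input table.

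Klf1 and Rhag stayed near 0. Klf1 was at 0.361 and 0.535 TPM in bulk RNA, reached 1 TPM in 3 of 29 sorted libraries and had its highest value, 3.90 TPM, in 10-cell pool 3. Rhag reached 1 TPM in 1 library, the same 10-cell pool 3, at 1.14 TPM. Neither reached 1 TPM in the 7 libraries that stood apart, where Klf1 was at 0.185 to 0.999 TPM and Rhag at 0 to 0.245 TPM. In 10-cell pool 3 Alas2 was at 13.1 TPM, and Trim10, another gene of the red cell list, was at 4.40 TPM. In the pools with the most Alas2, numbers 1, 8 and 10, Klf1 and Rhag were both at 0, as they were in single cell 11. The next, 10-cell pool 11, held Alas2 at 29.6 TPM, Klf1 at 0.899 TPM, Trim10 at 2.99 TPM and Rhag at 0.

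Other red cell genes gave the same picture of low levels. Of 28 genes listed as markers of the lineage, 8 were in the input table, and the globin genes were not analysed here. Without Alas2 the summed level of the other 7 was 0 to 6.78 TPM in single cells, 0 to 9.45 TPM in 10-cell pools, 2.24 to 8.72 TPM in 100-cell pools and 6.75 to 7.63 TPM in bulk RNA. In single cell 11 all 7 of these genes were listed at 0, as they were in 10-cell pool 1, where Alas2 stood at 43.6 TPM. Epor, the erythropoietin receptor, was the highest of them in bulk RNA, at a mean of 5.11 TPM. Whether red cell RNA contributed to the Alas2 values was not tested.

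Markers of other blood cells were also measured. Of 16 leukocyte genes 4 were in the input table, and their summed level was 32.0 to 37.9 TPM in bulk RNA, 6.86 to 128 TPM in 10-cell pools and 51.3 to 85.0 TPM in 100-cell pools. Most of it was Cd68, a lysosomal protein, whereas Coro1a and Csf1r had medians over the 18 pools of 0.701 and 0 TPM. Of 11 platelet genes 3 were present, at a summed 0 to 8.44 TPM in 10-cell pools and 4.48 to 5.94 TPM in bulk RNA. Of 11 neutrophil genes 4 were present, and their sum, 1303 to 6716 TPM in 10-cell pools and 4868 to 4921 TPM in bulk RNA, was mostly Lcn2, at a mean of 4714 TPM in bulk RNA of the input series. The processing libraries, normalised separately, held Lcn2 at 4.75 to 8.64 TPM. In the input series all 4 neutrophil genes had a lower median in 10-cell pools than in bulk RNA, but single pools went higher. S100a9 was at 8.45 and 9.93 TPM in bulk RNA, reached 88.0 TPM in 10-cell pools (median 0 TPM) and 20.5 TPM in 100-cell pools. S100a8 was at 37.4 and 51.0 TPM in bulk RNA, reached 51.4 TPM in 10-cell pools (median 1.57 TPM) and 128 TPM in 100-cell pools.

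Among the genes whose pattern over the 18 pools was most like that of Alas2 were Pls3 (r = 0.83) and Nipal1 (r = 0.79), by Pearson correlation of log2(TPM + 1). Pools share the cell line and the library chemistry, and the correlation is a description of these pools. Without the pools of the set that stood apart, r was 0.86 for Pls3 and 0.74 for Nipal1 over 13 pools. Pls3, a plastin that bundles actin, was expressed by the line at 280 and 287 TPM in bulk RNA and at 107 to 269 TPM in 10-cell pools, with its highest value in 10-cell pool 10, as for Alas2. In single cell 11, where Alas2 was at 278 TPM, Pls3 was at 36.7 TPM and Nipal1 at 0. Nipal1 was at no more than 18.7 TPM in bulk RNA and at 19.1 to 33.2 TPM in 10-cell pools. Among the 7 genes that passed the filter the closest pairs over the 18 pools were Blvrb with Bpgm (r = 0.56) and Alas2 with Bpgm (r = 0.54), whereas Alas2 with Klf1 was at r = 0.04 and Alas2 with Alas1 at r = -0.09. Over the 13 pools outside the set that stood apart the closest pair was Alas1 with Bpgm (r = 0.74, against 0.34 over all 18), Blvrb with Bpgm was at 0.51, Alas2 with Bpgm at 0.47, Alas2 with Klf1 at 0.06 and Alas2 with Alas1 at 0.32. The most alike genes of Alas1 were Dpp3, Usp21 and Kctd10 (r = 0.96 each), for Fech Ephx2 (r = 0.83), for Blvrb Zfp932 (r = 0.75), for Slc25a37 Ttll4 (r = 0.90), for Bpgm Atf3 (r = 0.80) and for Klf1 Sytl5 (r = 0.90), the last of which stayed at or under 1.37 TPM in 10-cell pools.

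One pool held the highest level of several of the genes. 10-cell pool 10 was the highest of the 12 for Alas2 (83.3 TPM), Fech (116 TPM), Blvrb (200 TPM) and Bpgm (87.8 TPM), 4 of 7 genes that passed the filter, and this was noticed in the data. The next pool stood at 45.3 TPM for Alas2, 105 TPM for Fech, 164 TPM for Blvrb and 46.5 TPM for Bpgm. Of all genes tested 6.29% were highest in this pool. Alas1 ranked 6 of 12 there, Slc25a37 ranked 8 and Klf1 was at 0.

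The wider pathways were described by lists of genes. Of the 9 heme synthesis genes, 5 had a higher median in 10-cell pools than in bulk RNA and 4 a lower one, with a median difference of 0.15 on the log2(TPM + 1) scale, against -0.82 over all genes tested. Alad, which makes porphobilinogen, had a median of 51.4 TPM in 10-cell pools against 35.2 TPM in bulk RNA. Ppox and Cpox, the oxidases before the last step, had the largest negative differences, at 12.7 against 28.0 TPM and 51.7 against 103 TPM. Among 6 genes of heme breakdown and export the median difference was 0.07. Blvra, the other biliverdin reductase, was at 130 against 64.5 TPM, while Hmox1, the inducible heme oxygenase, was at 224 against 403 TPM.

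Among 9 genes of mitochondrial iron, glycine and porphyrin transport, the median difference was -0.22. The porphyrin transporter Abcb6 (3.11 against 22.5 TPM) and Abcb10 (4.05 against 21.9 TPM) were lowest relative to bulk RNA, and Slc25a28, the mitoferrin of non-erythroid tissue, was at 9.25 against 28.1 TPM. The 11 genes of iron uptake, storage and sensing had a median difference of -0.98. The ferritin chains Ftl1 (26719 against 12351 TPM) and Fth1 (31007 against 20608 TPM) were higher in 10-cell pools, and the transferrin receptor Tfrc was lower (67.8 against 244 TPM). The 9 genes of iron-sulfur cluster assembly had a median difference of 0.83, with Glrx5 at 449 against 205 TPM and Isca2 at 224 against 115 TPM. Of the 5 genes of 2,3-bisphosphoglycerate metabolism, Bpgm alone had the higher median in 10-cell pools.

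**Figure D3:**
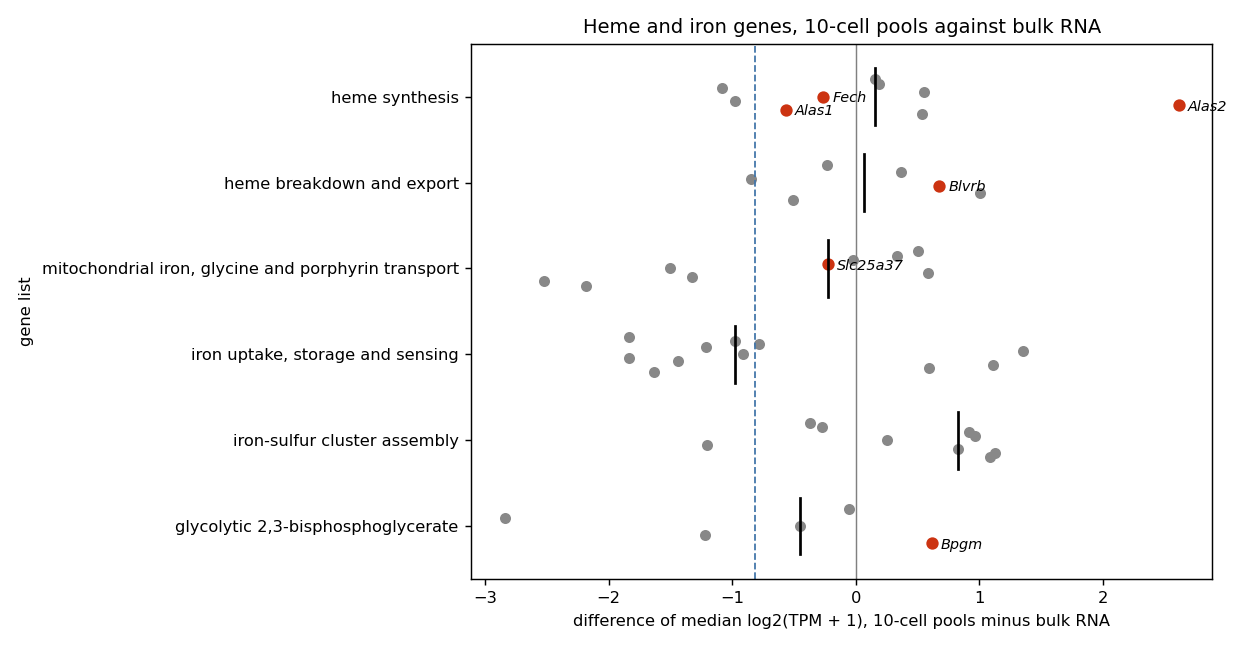
Difference of median log2(TPM + 1) between the 12 10-cell pools and 2 bulk RNA libraries for each gene of 6 lists, positive where the pools were higher. Red points are genes of the set described here, grey points the other genes of the lists, short black bars the list medians and the dashed blue line the median over all genes tested (-0.82). Alas2 had the largest positive difference, at 2.61.

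The comparison of 100-cell with 10-cell pools asks whether the level of a gene depends on how many cells were pooled, and its result depended on which 100-cell pools were used. Between all 6 and all 12 pools, 0 of 7 genes passed an adjusted p of 0.05 (limma on log2(TPM + 1), Benjamini-Hochberg over 12325 genes), and 0.00811% of all genes passed. At an unadjusted p under 0.05 were 1 of the 7 and 792 of the 12325 genes. Bpgm had the lowest p, with a log2 difference of -0.76 (SE 0.28, unadjusted p = 0.0125, adjusted p = 0.675). Alas2 differed by -0.55, with a 95% interval from -2.62 to 1.51, so that neither a fall nor a rise of 1 log2 unit was excluded. Alas1 differed by -0.42 (SE 0.34, adjusted p = 0.838).

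Without 100-cell pools 1 to 3, Alas1 was lower in 100-cell pools by a log2 difference of -1.39 (adjusted p = 0.00332, limma), the only 1 of the 7 genes that passed, where 15.8% of all genes passed and 11.5% were lower. Leaving out 10-cell pools 5 and 12 as well, Alas1 differed by -1.27 (adjusted p = 0.00672) and 12.5% of all genes passed. Without 100-cell pools 4 to 6 the estimate for Alas1 was 0.56 (adjusted p = 0.251). The split between 100-cell pools 1 to 3 and 4 to 6 was known from these data when the fits were set, and Alas1 itself lay apart across it. The p-values of these fits therefore cannot show an effect of pool size. Pools 4 to 6 were all below pools 1 to 3 for Alas1 and Fech, as were 58.8% of all genes, and all above them for Alas2 and Blvrb, as were 15.9%.

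The processing comparison asks whether depletion and sorting move the levels, and none of the 5 genes of the set that passed the filter met the threshold. Between the 4 conditions their lowest adjusted p was 0.794 (Bpgm, limma), where 0.107% of all genes passed. An unadjusted p under 0.05 was found for 0 of the 5 and for 919 of all 12159 genes tested. Alas1 was at 55.5 ± 2.21 TPM in Mock, 55.6 ± 2.64 TPM in Pre-FACS, 52.4 ± 7.06 TPM in FACS-only and 50.4 ± 2.14 TPM in Pre-enriched cells (mean ± SD, n = 3 each). Fech was at 76.1 ± 5.41, 75.2 ± 9.07, 75.6 ± 4.26 and 71.8 ± 4.28 TPM in the same order. Blvrb was at 20.4 ± 1.60, 20.7 ± 6.24, 20.7 ± 2.07 and 21.5 ± 1.22 TPM. For Fech and Blvrb the groups overlapped. For Alas1 the 3 Pre-enriched libraries, at 48.5 to 52.7 TPM, were below all Mock libraries, at 53.0 to 57.1 TPM, as were 8.81% of all genes, and overlapped the other conditions. The log2 difference of Alas1 against Mock was -0.13 (SE 0.090, adjusted p = 0.759, limma).

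Slc25a37 was at 9.51 ± 3.95 TPM in Mock and 8.09 ± 0.426 TPM in Pre-enriched cells, and the 3 Pre-enriched libraries, at 7.75 to 8.57 TPM, lay below all Pre-FACS and FACS-only libraries, as did those of 2.52% of all genes, and within the range of Mock. Its log2 difference of Pre-enriched against Pre-FACS cells was -0.27 (SE 0.22, adjusted p = 0.755, limma). Bpgm was at 82.0, 91.1 and 84.8 TPM in FACS-only and at 99.9, 91.2 and 93.6 TPM in Pre-enriched cells, which lay above all FACS-only and Mock libraries, as did those of 1.42% of all genes. The log2 difference of 0.14 (SE 0.064) against FACS-only cells had an unadjusted p of 0.0415 and an adjusted p of 0.733 (limma). Against Mock 0% of all genes passed, against Pre-FACS 0.0493% and against FACS-only 0%, with 945, 1116 and 821 of 12159 genes at an unadjusted p under 0.05. None of the 5 genes had all 3 Pre-enriched libraries above the other 9, as 0.74% of all genes did.

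**Figure D4:**
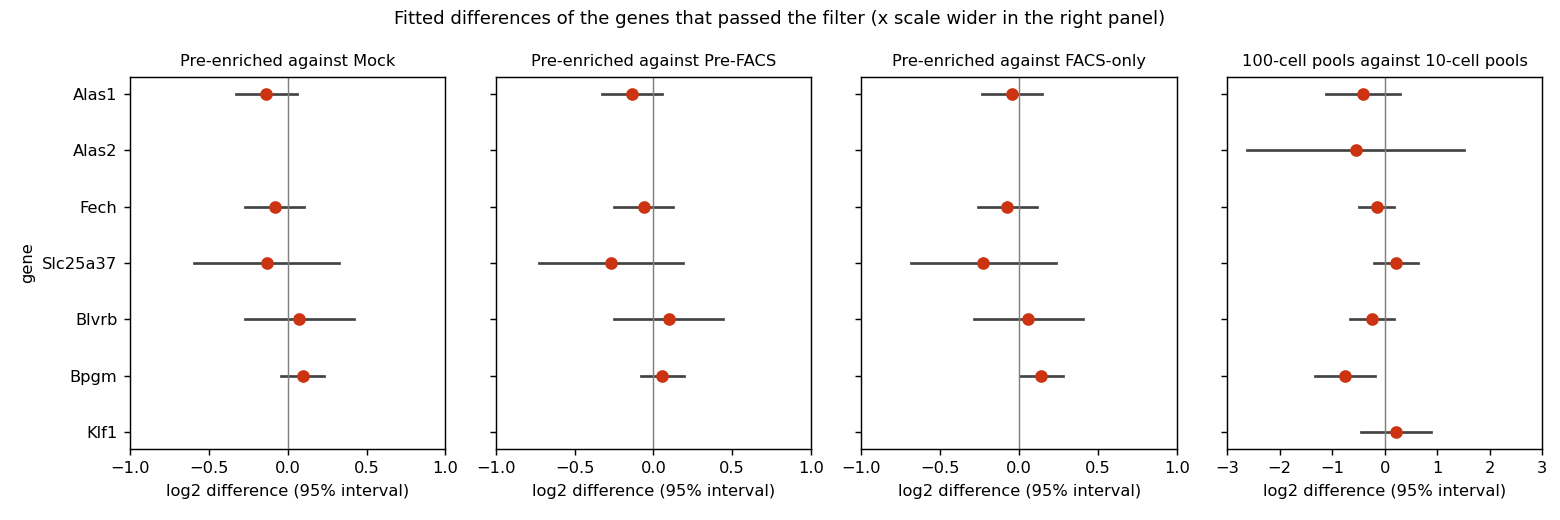
Fitted log2 differences (points) with 95% intervals (lines) for the genes that passed the filter, in 3 processing comparisons and between pool sizes, positive where the first named group was higher. The right panel has a wider scale. No gene passed the adjusted threshold, and the interval of Alas2 between pool sizes ran from -2.62 to 1.51.

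Alas2 and Klf1 did not pass the filter of the processing table. Alas2 was at 0.406, 0 and 0.0664 TPM in Mock, 0.713, 0.201 and 0.606 TPM in Pre-FACS, 0.396, 0.680 and 0.466 TPM in FACS-only and 3.33, 0.199 and 1.10 TPM in Pre-enriched cells. Of the 12 libraries, 2 reached 1 TPM and both were Pre-enriched, while the remaining Pre-enriched library lay within the range of the other conditions. With no filter, Pre-enriched against Mock gave a log2 difference of 0.95 (SE 0.33, unadjusted p = 0.0119, adjusted p = 0.562, limma). In that comparison 1033 of 13845 genes had an unadjusted p under 0.05. Against Pre-FACS the difference was 0.57 (unadjusted p = 0.105) and against FACS-only 0.56 (unadjusted p = 0.116, limma). Over the 4 conditions the unadjusted p of Alas2 was 0.0774 and the adjusted p 0.723 (limma). Klf1 ranged from 0.0837 to 1.21 TPM over the 12 libraries, with overlapping groups. The other red cell genes, 5 in this table, summed to 5.63 to 7.48 TPM in Mock, 6.85 to 8.01 TPM in Pre-FACS, 7.48 to 9.93 TPM in FACS-only and 7.16 to 10.8 TPM in Pre-enriched cells. Their median was 9.14 TPM in FACS-only and 7.43 TPM in Pre-enriched cells.

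Among the 48 genes of the pathway lists tested in the processing table, 1 passed. Of all genes tested, 0.0493% passed against Pre-FACS and 0.107% over the 4 conditions. The lists were chosen with earlier results of these data known. Pgam1, the glycolytic phosphoglycerate mutase, was at 306, 308 and 309 TPM in Pre-enriched cells and at 389, 406 and 401 TPM in Pre-FACS cells, a log2 difference of -0.37 (SE 0.054, adjusted p = 0.0200, limma), and passed also over the 4 conditions (adjusted p = 0.0314). FACS-only cells held it at 324, 323 and 360 TPM and Mock cells at 357, 393 and 367 TPM, and Pre-enriched cells differed from them by -0.13 (adjusted p = 0.716) and -0.27 (adjusted p = 0.233). The heme synthesis, heme breakdown, mitochondrial transport, iron and iron-sulfur lists held 0 genes past the threshold in each of the 4 processing tests and in the comparison of all pools. The lowest adjusted p over the 4 conditions among breakdown genes was 0.558 (Hmox1, limma).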

How the data were processed

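TPM values deposited by the authors were used as they stand. The authors aligned reads to mm10 with ERCC spike-in sequences by STAR, counted them with featureCounts, normalised by upper quartile in EDASeq and divided by effective gene length; SMART-Seq v4 amplified the sorted libraries. The depth of each library cannot be recovered from TPM, so no counting interval is given. Members and gene lists were chosen with earlier results of these data known. Groups followed the labels, and each table was analysed alone.

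Differences were fitted with limma 3.58.1 in R 4.3.3 (trend, Benjamini-Hochberg, threshold 0.05) on log2(TPM + 1), which understates changes of low genes, for genes at 1 TPM or more in at least 3 libraries: 12159 of 13845 in the processing table and 12325 of 13817 in the input table. All 4 conditions shared one fit, as did the pools. The procedure was tested on simulated data. Sorted cells and bulk RNA were compared without a test. Detection meant 1 TPM. Named genes were the 8 members, per list the 3 with the lowest p and the 3 with the largest differences in each direction, 3 markers of highest pool median per blood list, and the 3 most correlated genes per member; Trim10, Pgam1 by library and 10-cell pool 10 were singled out after their values were seen. Python 3.11.15 with pandas 2.3.3 was used for the rest. The alternatives tried were another pseudocount (0.1), no filter, a mean of 5 TPM, no trend, quantile normalisation, rescaling, a replicate block and libraries left out. A few named genes and an allele of the model are not reported here.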

Additional observations from a re-analysis of the deposited data

How the results depend on the processing

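No gene of the set passed the threshold in any processing comparison under any of the alternatives run. Over all genes the counts that passed were 13 across the 4 conditions, 0 against Mock, 6 against Pre-FACS and 0 against FACS-only. With no filter they were 7, 1, 5 and 1, and without a trend 1, 1, 6 and 2. Leaving out 1 library at a time gave 1 to 17, 0 to 0, 1 to 7 and 0 to 2. With a replicate block they were 61, 2, 37 and 7, and 0 for the pools. The replicate numbers were not shown to pair libraries, since same-numbered samples correlated at -0.04 to 0.23 in 18 pairs of processing groups, 2 of them over 0.1, and at -0.63 to 0.33 in 6 pairs of input libraries, 1 of them over 0.1.

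Between pool sizes 1 gene passed with all pools, 3 with no filter, 0 without a trend, 2 without 100-cell pools 4 to 6, 1946 without 100-cell pools 1 to 3 and 1543 without 10-cell pools 5 and 12 and 100-cell pools 1 to 3, an alternative chosen after the data were seen. The last 2 settings each called 1 gene of the set, Alas1, and both rest on a split of the 100-cell pools that was seen in these data. The direction turned for Alas1 (0.56) and Fech (0.049) without 100-cell pools 4 to 6, for Alas2 with a pseudocount of 0.1 (0.25), with the replicate block (0.27) and without 100-cell pools 1 to 3 (0.33), and for Klf1 with the replicate block (-0.040), with adjusted p from 0.251 to 0.991 (limma). The cause was not tested. Of the 29 sorted libraries, Alas2 was detected in 14 at 1 TPM and in 9 at 5 TPM, Klf1 in 3 at 1 TPM, 13 above 0 and 0 at 5 TPM, and Rhag in 1 at 1 TPM, 10 above 0 and 0 at 5 TPM. TPM without depth limits what can be said of values under 1 TPM.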
